A study of Homo sapiens with 6 samples.

Results

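Cytosolic ribosomal protein genes were examined in CFPAC-1 cells with a guide RNA against SULF2. Members were the genes named with the stem RPL or RPS and a number, optionally ending in A, X or L, plus RPLP0, RPLP1, RPLP2 and RPSA, that had a TPM (a gene's share of the transcripts in a library) of at least 1 in at least 2 of the 6 libraries. Of the 59962 genes in the table, 81 carried such a name and 79 were kept, 47 of the large and 32 of the small ribosomal subunit. The lowest members in the control libraries were RPS27L and RPL39L, with mean TPM of 41.4 and 48.0, so none lay near the threshold, and the genes left out were RPL3L, at no more than 0.13 TPM in any library, and RPL10L, listed at 0 in all 6. CFPAC-1 is an established human line from a pancreatic ductal adenocarcinoma. Total RNA came from 3 groups of 2 libraries, LACZ, sgRNA1 and sgRNA3. In LACZ the guide targets a bacterial gene and serves as the control. In sgRNA1 and sgRNA3 a guide targets SULF2, an extracellular sulfatase that trims heparan sulfate. The labels call the treatments LACZ knockdown, SULF2 knockdown using sgRNA1 and SULF2 knockdown using sgRNA3. All groups are CFPAC-1 cells carrying a guide, and the sources used here do not give the enzyme used with the guides, the number of clones behind each group or the culture times, nor say that libraries of 1 group are separate cultures. The p-values below therefore measure only the spread between these libraries, which may be technical.

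The ribosome has a small subunit, which reads the messenger RNA, and a large subunit, which joins amino acids, and each holds a set of ribosomal proteins in fixed proportion to its ribosomal RNA. Most ribosomal protein mRNAs begin with a terminal oligopyrimidine (TOP) tract, a C at the cap followed by a run of C and T (U in RNA), through which mTORC1 and the RNA-binding protein LARP1 control their translation without needing a change in mRNA level. RNA-seq measures the mRNA level and not the amount of ribosome or its translation.

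The TOP tract could be read for 63 of the 79 members with a transcript start in the RefSeq table of the GRCh38.p14 build. A gene was counted when, at any of its listed starts, the first base was C and at least 4 further bases of C or T followed on the transcribed strand. This held for 46 of 63 members (73.0%), 28 of 38 in the large and 18 of 25 in the small subunit, beside 754 of 10611 tested genes with a listed start (7.11%). The runs were 5 to 19 bases long, with a median of 8. The sequences below span 15 bases before the start and 15 from it, in capitals where the tract runs. The first set holds members described below as higher or lower with a guide whose start carries the tract.
RPL7A (chr9:133348203-133348232, plus strand): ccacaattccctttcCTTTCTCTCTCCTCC
RPS3A (chr4:151099613-151099642, plus strand): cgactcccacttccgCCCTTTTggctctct
RPL13A (chr19:49487593-49487622, plus strand): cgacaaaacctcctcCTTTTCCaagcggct
RPS9 (chr19:54200843-54200872, plus strand): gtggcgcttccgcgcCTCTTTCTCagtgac
RPS3 (chr11:75399503-75399532, plus strand): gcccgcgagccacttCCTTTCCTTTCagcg
RPS14 (chr5:150449725-150449754, minus strand): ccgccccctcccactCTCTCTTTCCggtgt
RPS23 (chr5:82278340-82278369, minus strand): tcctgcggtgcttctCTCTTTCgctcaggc
RPL31 (chr2:101002274-101002303, plus strand): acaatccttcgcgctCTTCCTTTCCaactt
RPLP2 (chr11:809952-809981, plus strand): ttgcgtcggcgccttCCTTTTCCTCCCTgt
The tract differs in length and in the order of C and T among these members, from 7 bases in RPL13A, RPS23 and RPS3A to 16 in RPL7A, of which 15 are printed. Among the members called with at least 1 guide that have a listed start, 9 of 12 carried the tract, and 37 of 51 of the members that were not called did. The 3 others, which lack the tract at the listed starts, are shown for contrast, with RPL6 at the first of its 2 starts.
RPL6 (chr12:112411428-112411457, minus strand): tatttgtatcctcagtgaatcagaaccaga
RPL3 (chr22:39319609-39319638, minus strand): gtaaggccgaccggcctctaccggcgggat
RPS29 (chr14:49598696-49598725, minus strand): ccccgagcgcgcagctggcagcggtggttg
RPL3 begins with a C, but its run ends after 4 bases. A start 1 base upstream would give it a run of 5. With a tolerance of 5 bases around the listed start, 53 of 63 members (84.1%) and 29.2% of all tested genes with a start held such a run. Of the members called with at least 1 guide 10 of 12 did, now with RPL3, and of those not called 43 of 51 did. The listed starts are annotated and were not measured here, so these counts need not hold at the cap. Paralog pairs are shown because their members differ in level or response below.
RPL22 (chr1:6199581-6199610, minus strand): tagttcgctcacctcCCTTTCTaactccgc
RPL22L1 (chr3:170870181-170870210, minus strand): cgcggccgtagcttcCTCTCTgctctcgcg
RPS27 (chr1:153990747-153990776, plus strand): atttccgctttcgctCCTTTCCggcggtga
RPS27L (chr15:63157463-63157492, minus strand): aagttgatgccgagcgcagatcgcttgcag
RPL22 and its paralog RPL22L1 both carry the tract. RPS27 carries it and RPS27L does not. Other promoter letters separated the members less from the rest. CCGGAAG, the core of ETS family sites, was found on either strand of the 300 bases around the start in 36.5% of members and 22.2% of tested genes, AANATGGC, a form of the YY1 site, on either strand in 15.9% and 12.1%, and TATAA, on the transcribed strand 20 to 40 bases upstream, in 11.1% and 3.93%. These matches are letters in a window and not measured sites.

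The targeted gene was lower in every library with a guide against it. SULF2 was at 25.7 and 22.5 TPM in LACZ, 8.98 and 12.8 with sgRNA1, and 10.1 and 9.24 with sgRNA3, log2 changes of -1.09 (adjusted p = 0.0338) and -1.235 (adjusted p = 0.0215). Between 15563 and 15923 genes reached 1 TPM per library, and mitochondrial transcripts took 10.25% to 11.25% of the total. Of 9 epithelial duct markers, 8 were at 1 TPM or more in all libraries and their summed TPM was 8026 to 9234, with CFTR below 1. Of the markers of other cell types, 2 of 7 for fibroblasts, 2 of 6 for leukocytes and 1 of 3 for endothelium reached 1 TPM in all libraries, while the defining genes PTPRC, CD3E, DCN, THY1, CDH5 and VWF stayed below 1. The summed fibroblast markers, nearly all COL1A1, were 77.5 to 77.9 TPM in LACZ, 58.6 to 60.5 with sgRNA1 and 37.6 to 41.7 with sgRNA3, and the summed leukocyte markers, mostly CD68, 91.7 to 95.5, 96.1 to 101 and 107 to 109.95. The epithelial sum was 9061 to 9234 in LACZ and 8026 to 8684 with the guides, and the part of these shifts in the results below was not tested. In bulk RNA of this kind, fewer cells of a type and less RNA per cell cannot be told apart. A TPM holds no depth, so sequencing depth is unknown here and values carry no counting interval.

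Ribosomal protein transcripts were among the most abundant in these cells. Together the 79 members took 12.8% and 13.1% of all TPM in LACZ, 12.8% and 13.0% with sgRNA1, and 12.7% and 12.6% with sgRNA3. Of the 100 most abundant genes, 42 were members, 24 of the large and 18 of the small subunit, and the median level of a member over the libraries was 1413 TPM against 12.9 for all genes tested. The level is per length of transcript, which allows a rough comparison between genes. Reads may be shared with pseudogene copies, as described below, and how well very short transcripts can be compared was not tested. RPS27, a zinc-finger protein of the small subunit, stood highest with 6944 ± 254 TPM (SD, n = 2) in LACZ, followed by RPL41, the shortest ribosomal protein with 25 residues, at 4897 ± 142, and RPS23, a protein of the decoding centre, at 4331 ± 218. RPS18 (3929 ± 242) and, in the large subunit, RPLP0 (3586 ± 135) and RPL19 (3520.0 ± 137) came next. RPLP0 and RPL19 overlapped in LACZ, so their order is not resolved, while the libraries of the other neighbours in this order did not overlap. Toward the other end, RPS28 was at 375 and 356 TPM in LACZ, RPL36 at 426 and 430.1, and RPL32 at 489 and 475, with no overlap between these neighbours. The place of RPS28 is uncertain, since with its pseudogene copies added it was at 606 and 751 in LACZ, above RPL36 and RPL32. The paralogs RPL39L and RPS27L were an order of magnitude lower still, at 49.2 and 46.8 TPM and at 42.1 and 40.8 TPM, while RPL39, whose product RPL39L can replace in some tissues, was at 2603 and 2695.

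**Figure D1:**
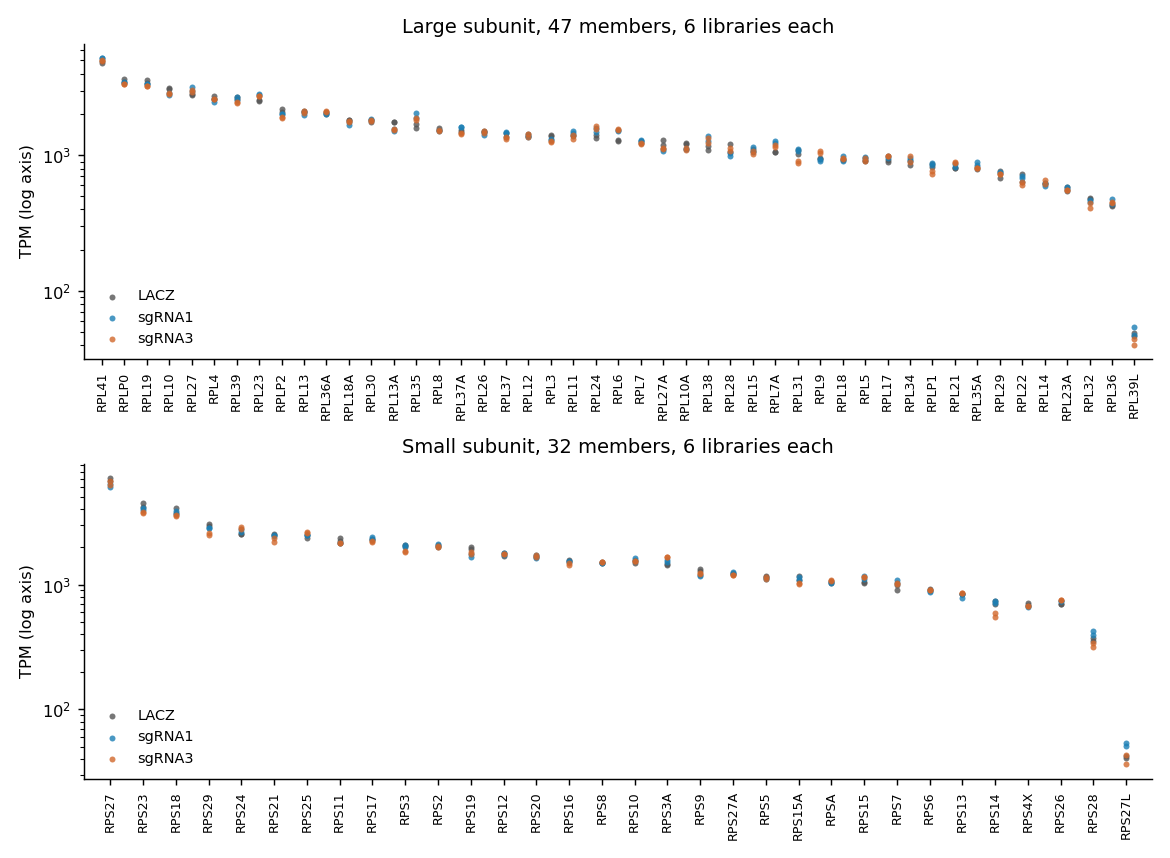
TPM of each ribosomal protein gene on a log axis, the large subunit above and the small subunit below, ordered by the mean of the LACZ libraries; each point is 1 of 6 libraries, coloured by group. The points of a gene nearly coincide, and RPL39L and RPS27L sit apart from the rest at mean LACZ levels of 48.0 and 41.4 TPM.

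Members were also measured with little spread. The median difference between libraries of a group was 0.04 on the log2 scale for members, 0.14 for all genes tested and 0.05 for the 385 other genes with a mean of at least 300 TPM. The 79 genes lay on 21 chromosomes, with 12 on chromosome 19, 8 on chromosome 3 and 6 on chromosome 17.

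The summed level of each subunit moved by a few percent between groups. The 47 large subunit members summed to 70941 and 72587 TPM in LACZ, 72235 and 72931 with sgRNA1, and 71329 and 70670.3 with sgRNA3. The 32 small subunit members summed to 57356 and 58429 in LACZ, 56113 and 57270 with sgRNA1, and 56067 and 55356 with sgRNA3. The large subunit sums of LACZ overlapped those of each guide, while both sgRNA3 libraries lay below both sgRNA1 libraries. Of the small subunit sums, every guide library lay below both LACZ libraries, although sgRNA1 2 lay close to LACZ 1. With sgRNA1 the mean of the large subunit differed from that of LACZ by 1.14% and the mean of the small subunit by -2.08%. With sgRNA3 the values were -1.07% and -3.77%. These directions depend on the scaling: under median-of-ratios scaling the small subunit mean was 3.85% above LACZ with sgRNA1 and 0.0118% above with sgRNA3.

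A ratio within a library does not depend on such scaling. The summed TPM of the large subunit over that of the small was 1.237 and 1.242 in LACZ, 1.287 and 1.273 with sgRNA1, and 1.272 and 1.277 with sgRNA3. All 4 guide libraries were above both controls, and the guide groups overlapped. Relative to LACZ, the ratio was 3.29% higher with sgRNA1 (1.280 ± 0.00976, SD, n = 2) and 2.81% higher with sgRNA3 (1.274 ± 0.00318) than in the controls (1.240 ± 0.00382). No test is given for a sum over members, and the ratio is given as a description. The most abundant member, RPS27, was at 6765 and 7123 TPM in LACZ, 6040 and 6392 with sgRNA1, and 6763 and 6234 with sgRNA3, below both LACZ libraries in all 4, in sgRNA3 1 only just (log2 changes of -0.16 and -0.10, adjusted p = 0.146 and 0.309). Without RPS27 the ratio was 1.402 and 1.415 in LACZ and 1.434 to 1.447 with the guides, differences of 2.10% and 2.43%. Without the 6 most abundant members it was 1.389 and 1.411 in LACZ and 1.412 to 1.427 with the guides, differences of 1.49% and 1.41%. These alternatives were chosen after seeing the data.

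**Figure D2:**
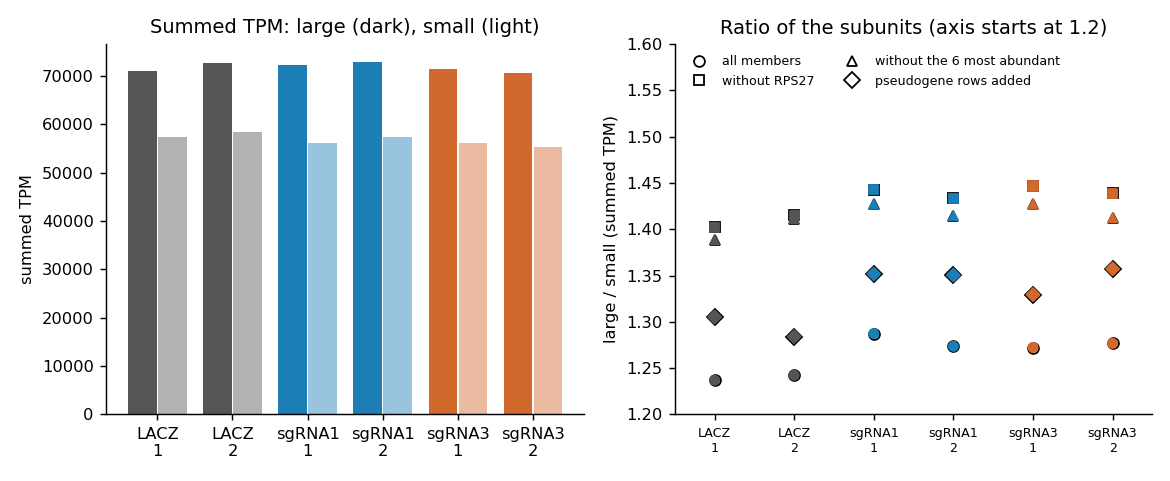
Left, summed TPM of the 47 large (dark bars) and 32 small (light bars) subunit genes in each library, from 0. Right, the ratio of these sums per library (axis from 1.2) for all members and under 3 alternative choices of members; with all members the LACZ libraries are at 1.237 and 1.242 and the guide libraries at 1.272 to 1.287.

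Per gene, the changes were small against those of other transcripts. With sgRNA1, 57 of 79 members differed from LACZ by less than 0.1 on the log2 scale and 74 by less than 0.2, and with sgRNA3 41 and 74 did. The median absolute log2 change was 0.06 and 0.10 for members, 0.21 and 0.23 for all 16610 genes tested, and 0.13 and 0.15 for other genes with a mean of at least 300 TPM. The median signed change was 0.015 with sgRNA1 and -0.03 with sgRNA3 for members, against -0.07 and -0.045 for all genes tested. In the large subunit the medians were 0.03 and -0.02, and in the small subunit -0.01 and -0.03. The difference of these medians, large minus small, was 0.04 with sgRNA1 and 0.01 with sgRNA3. The sign of the members' median depends on the scaling, since under median-of-ratios scaling the medians were 0.10 and 0.025 and under quantile normalization -0.03 and -0.05.

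With sgRNA1, 3 members rose and 2 fell at an adjusted p below 0.05 in limma (3.80% and 2.53% of members), where 1.69% of all genes tested rose and 4.31% fell. Among the other genes with a mean of at least 300 TPM, 23.1% were called in either direction, and among members 6.33%. The members that rose were all of the large subunit. RPL6, a large subunit protein particular to eukaryotes, was at 1297 and 1268 TPM in LACZ and 1524 and 1545 with sgRNA1, a log2 change of 0.26 (SE 0.03, adjusted p = 0.0120). RPL7A, which binds 28S ribosomal RNA, was at 1059.9 and 1063 in LACZ and 1241 and 1281 with sgRNA1, a change of 0.25 (SE 0.03, adjusted p = 0.0169). RPL23 (GRCh38 chromosome 17, 38847865 to 38853843), a protein of the subunit interface that also binds MDM2, was at 2540.3 and 2500 in LACZ and 2805 and 2838 with sgRNA1, a change of 0.16 (SE 0.02, adjusted p = 0.0264). For all 3 genes the sgRNA1 libraries lay above both LACZ libraries, which is no separate support, since the same libraries gave the calls. RPL13A, a large subunit protein that can also act outside the ribosome as a translational repressor, fell from 1767 and 1755 TPM in LACZ to 1521 and 1566, a change of -0.19 (SE 0.03, adjusted p = 0.0267). This value is uncertain, since the call was lost when the TPM of its pseudogene copies was added (adjusted p = 0.0617). RPS9, a small subunit protein near the mRNA entry channel, fell from 1341 and 1287 to 1171 and 1181, a change of -0.16 (SE 0.03), with an adjusted p of 0.04998 at the edge of the threshold. In the small subunit no member rose, with 8 at an unadjusted p below 0.05. RPS27L had the largest change of any member, from 42.1 and 40.8 TPM to 53.5 and 50.8 (0.325, SE 0.10), but did not pass (adjusted p = 0.118).

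These calls rest on 2 libraries a group. With LACZ 1, LACZ 2, sgRNA1 1 or sgRNA1 2 left out, no member was called in this comparison, and with either sgRNA3 library left out 2 rose (RPL6 and RPL7A) and 0 fell. Calls over all genes dropped as well, from 281 higher and 716 lower to 33 to 120 higher and 130 to 344 lower. The split also moves with the scaling: median-of-ratios factors gave 3 higher and 0 lower, and quantile normalization 3 higher and 7 lower.

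With sgRNA3, 4 members rose and 8 fell (5.06% and 10.1% of members), where 3.84% of all genes tested rose and 5.25% fell. Of the other genes with a mean of at least 300 TPM, 33.2% were called in either direction, and of members 15.2%. RPL6 was at 1553 and 1529 TPM with sgRNA3, a log2 change of 0.265 from LACZ (SE 0.03, adjusted p = 0.00995), the smallest adjusted p of any member. RPL7A, at 1191 and 1159, changed by 0.15 (adjusted p = 0.0484), and RPL23, at 2758 and 2725, by 0.12 (adjusted p = 0.0431). RPS3A, a small subunit protein found in eukaryotes, rose from 1472 and 1427 to 1656 and 1663, by 0.195 (SE 0.03, adjusted p = 0.0259).

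The members that fell with sgRNA3 were 4 of the large and 4 of the small subunit. RPS14, a small subunit platform protein whose single-copy loss is known from a form of myelodysplasia, fell from 693 and 741 TPM to 545 and 596 (-0.33, SE 0.06, adjusted p = 0.0325). RPS29, a zinc-binding protein of the small subunit head, fell from 3050 and 2927 to 2588 and 2502 (-0.23, adjusted p = 0.0190). RPS23 fell from 4177 and 4485 to 3818 and 3764 (-0.19, adjusted p = 0.0484). RPS3, at the mRNA entry site, fell from 2036 and 2067 to 1851 and 1833 (-0.155, adjusted p = 0.0303). In each of these 4 genes both sgRNA3 libraries lay below both LACZ libraries. RPL31, near the exit of the peptide tunnel, fell from 1025 and 1088 to 871 and 905 (-0.25, SE 0.04, adjusted p = 0.0328). RPLP2, of the acidic stalk, fell from 2088 and 2199 to 1896 and 1915 (-0.17, adjusted p = 0.0415). RPL3, which reaches toward the peptidyl transferase centre, fell from 1389 and 1419 to 1255 and 1282 (-0.15, adjusted p = 0.0430). RPL13A was at 1559 and 1527 with sgRNA3 (-0.19, adjusted p = 0.0224). Again no sgRNA3 library of these genes overlapped LACZ. In both subunits this is no separate support, since the same libraries gave the calls.

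With LACZ 1 left out, 1 member rose (RPL6) and 0 fell in this comparison, and with LACZ 2, sgRNA3 1 or sgRNA3 2 left out 0 were called. With either sgRNA1 library left out, 3 rose (RPL6, RPS3A and RPS15) and 3 fell (RPL13A, RPS3 and RPS29), RPS15 being named after its values were seen. Over all genes the calls then ranged from 93 to 422 higher and 140 to 545 lower, against 637 and 872 with every library. Median-of-ratios factors gave a split of 4 higher and 1 lower, and quantile normalization 4 higher and 15 lower. Over both comparisons, 13 of the 79 members made 17 calls, none of which held in all 6 fits with a library left out and 10 of which were lost in each of them, while no called change reversed its sign in any alternative.

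**Figure D3:**
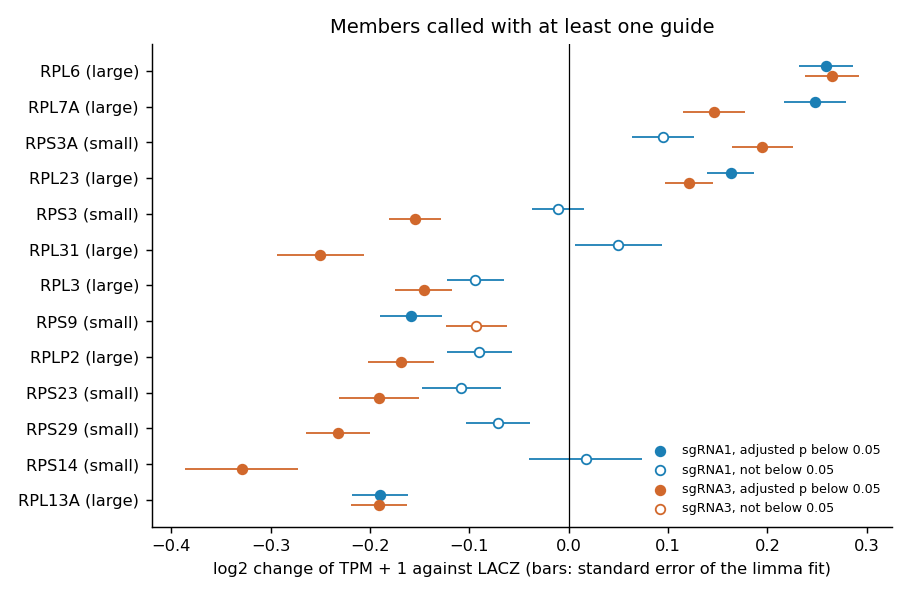
Log2 change against LACZ of the 13 members that passed with at least 1 guide, in blue for sgRNA1 and orange for sgRNA3; bars are the standard error of the limma fit, filled points have an adjusted p below 0.05 and open points do not. RPL6 is at 0.26 and 0.265, and RPL31 and RPS14 are near 0 with sgRNA1 (0.05 and 0.02) and at -0.25 and -0.33 with sgRNA3.

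The 2 comparisons share their LACZ libraries, and likeness between their values is no separate evidence. RPL6, RPL7A and RPL23 passed as higher in each, and RPL13A as lower, 3 and 1 members, where 1.15% and 2.90% of all genes tested passed in the same way. By the levels alone, 15 members (19.0%) had all 4 guide libraries above both LACZ libraries, beside 13.2% of all genes tested, and 20 members (25.3%) had all 4 below, beside 23.4%. In the large subunit these were 10 and 11 of 47, and in the small subunit 5 and 9 of 32. Of the 385 other genes with a mean of at least 300 TPM, 128 (33.2%) had all 4 above and 85 (22.1%) all 4 below. The members' share above was thus over that of all genes and under that of these abundant genes, and neither difference was tested.

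Between the guides no member passed, where 0.391% of all genes tested were higher and 0.187% lower with sgRNA3 than with sgRNA1, although 18 members had an unadjusted limma p below 0.05, 2 higher and 16 lower. The median member was 0.03 lower with sgRNA3 (-0.03), while the median over all genes was 0.04. RPL31 came closest, at 1072 and 1115 TPM with sgRNA1 and 871 and 905 with sgRNA3 (-0.30, adjusted p = 0.0816). RPS14 was next, at 735 and 716 against 545 and 596 (-0.35, adjusted p = 0.0957). In both genes the sgRNA1 libraries lay within or next to the LACZ range and the sgRNA3 libraries below it, but the difference between guides did not pass the test.

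Members known for roles of their own mostly did not pass with either guide. RPL5 and RPL11, which with 5S ribosomal RNA form the particle that binds MDM2, were at 921 and 908 TPM and at 1409 and 1397 in LACZ. Their log2 changes were 0.08 and 0.09 with sgRNA1 and 0.03 and -0.04 with sgRNA3, with no adjusted p under 0.248. Of the acidic stalk, which recruits elongation factors, RPLP0 had log2 differences from LACZ of -0.06 and -0.09 (adjusted p = 0.326 and 0.152) and RPLP1 of 0.04 and -0.17 (adjusted p = 0.625 and 0.0779). RPLP2 was the stalk member that passed, with sgRNA3. RPL10, which joins the large subunit late in its assembly, was at 3100.2 and 3142 TPM in LACZ, 2874 and 2766 with sgRNA1, and 2822 and 2902 with sgRNA3. All 4 guide libraries lay below the controls, and the differences of -0.15 and -0.125 came close to the threshold (adjusted p = 0.0581 and 0.0668).

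RPS6, the small subunit protein phosphorylated by S6 kinase, was at 926 and 899 TPM in LACZ and 879 to 912 with the guides, with log2 differences of -0.05 and -0.005 (adjusted p = 0.344 and 0.934). RPS19, the gene most often mutated in Diamond-Blackfan anaemia, was at 1991 and 1919 in LACZ, 1677 and 1763 with sgRNA1, and 1740.4 and 1809.7 with sgRNA3. All guide libraries of this gene were below LACZ, with changes of -0.185 and -0.14 that did not pass (adjusted p = 0.0610 and 0.0916). The log2 differences were -0.02 and 0.04 for RPSA, also known as a laminin receptor, 0.015 and -0.03 for RPS27A, which is made as a fusion with ubiquitin, and -0.06 and -0.05 for RPS4X, none with an adjusted p under 0.328. RPL41 was at 4796 and 4997 in LACZ and 4976 to 5188 with the guides (0.08 and 0.03, adjusted p = 0.142 and 0.554).

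RPL22L1, a paralog of RPL22 outside the naming rule, fell from 120.3 and 128 TPM in LACZ to 63.9 and 73.8 with sgRNA1 (-0.845, SE 0.09, adjusted p = 0.0107) and 87.8 and 82.0 with sgRNA3 (-0.54, adjusted p = 0.0262). RPL22 itself was at 639 and 724 in LACZ, 706 and 682 with sgRNA1, and 642 and 605 with sgRNA3, with changes of 0.03 and -0.13 (adjusted p = 0.838 and 0.295). The guide libraries did not overlap LACZ for RPL22L1 and did for RPL22, and the difference between the paralogs was not tested. With LACZ 1 or LACZ 2 left out, the adjusted limma p of RPL22L1 was 0.0674 and 0.0743 with sgRNA1 and 0.0948 and 0.119 with sgRNA3. The sgRNA3 call was also lost without sgRNA3 1 (adjusted p = 0.0876) or sgRNA3 2 (adjusted p = 0.1145). In RPL39L the log2 differences were 0.08 and -0.17 and in RPL39 -0.01 and -0.11, with no adjusted p under 0.128. For RPS27L and RPS27 the values were 0.325 and -0.16 with sgRNA1 and -0.06 and -0.10 with sgRNA3, none past the threshold.

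Processed pseudogenes, reverse-transcribed copies of spliced mRNA, are numerous for this family, and reads of a member and its copies can be hard to separate. The table held 1132 rows named as pseudogenes of 76 members, 61 of which passed the filter, and they summed to 2.73% to 3.78% of the members' TPM in each library. For 7 members the copies summed to at least 5% of the gene's own TPM: RPL23A (285%), RPL9 (86.9%), RPS28 (63.3%), RPL39 (40.7%), RPL21 (32%), RPL22 (11.8%) and RPL13A (10.03%). RPL9, RPL21 and RPL23A are named here after their values were seen. The values of these 7 members are therefore uncertain, and no source used here says how the authors' estimation shared reads among copies.

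Some copies varied between libraries of a group far more than the gene. RPL39P3 was at 1454 and 62.6 TPM in LACZ, 875 and 1585 with sgRNA1, and 783 and 1394 with sgRNA3, while RPL39 stayed between 2412 and 2696. RPL22P1 was listed at 0 in sgRNA1 2 and sgRNA3 1 and at 81.4 to 106 in the other 4 libraries. RPS28P7 ranged from 44.3 to 439, and RPS28 from 314 to 422. RPL13AP5 went the other way from its gene, at 107 and 112 in LACZ, 141 and 167 with sgRNA1, and 184 and 237 with sgRNA3 (0.49, adjusted p = 0.110, and 0.93, adjusted p = 0.0238). When the copies' TPM was added to each member, an alternative chosen after seeing the data, RPL13A differed from LACZ by -0.14 and -0.09 (adjusted p = 0.0617 and 0.121), and both of its calls were lost. Over the 19 alternatives its adjusted p ran from 0.0112 to 0.215 with sgRNA1 and from 0.00975 to 0.177 with sgRNA3. RPL9 showed the opposite: on its own it differed by 0.15 with sgRNA3 (adjusted p = 0.0501), and with its copies, of which RPL9P9 at 695 to 953 TPM was the main one, by 0.21 (adjusted p = 0.0435). With copies added, the ratio of large to small subunit was 1.305 and 1.284 in LACZ and 1.329 to 1.357 with the guides.

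**Figure D4:**
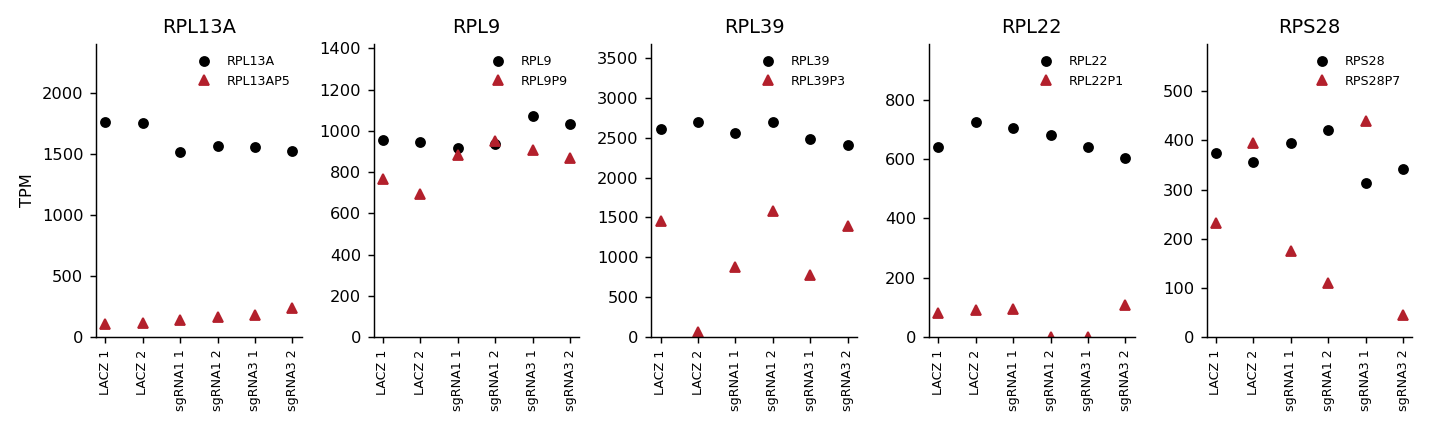
TPM per library of 5 ribosomal protein genes (black circles) and of the most abundant row named as a pseudogene of each (red triangles), on axes from 0. RPL39P3 ranges from 62.6 to 1585 TPM while RPL39 stays between 2412 and 2696, and RPL13AP5 is higher in the guide libraries, where RPL13A is lower.

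Many ribosomal protein genes carry small nucleolar RNAs (snoRNAs), which guide modification of ribosomal RNA, in their introns. In GENCODE 29, 28 of the 79 members (35.4%) contained an annotated snoRNA on the same strand, 19 of the large and 9 of the small subunit, against 253 of 15925 annotated genes tested (1.59%). Of the members called with at least 1 guide, RPL13A and RPL7A hold 4 each, RPL3 holds 3, RPL23, RPS3A and RPS3 hold 2 each and RPLP2 holds 1. Hosts numbered 7 of the 13 called members and 21 of the 66 others. The 28 hosts had median log2 changes of -0.01 with each guide, and the 51 members without a snoRNA 0.04 and -0.04.

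Other parts of the translation machinery were compared through lists of genes, chosen with earlier results of these data known. Beside the counts below, 1.69% of all genes tested rose and 4.31% fell with sgRNA1. With sgRNA3, 3.84% rose and 5.25% fell. Of 10 ribosomal proteins and fusions outside the naming rule, 0 rose and 1 fell with sgRNA1 (RPL22L1, with 2 higher at an unadjusted p below 0.05), and 1 rose and 2 fell with sgRNA3. RACK1, a scaffold on the small subunit head, fell from 2569 and 2667 TPM to 2290.3 and 2311 with sgRNA3 (-0.19, adjusted p = 0.0233). RPL7L1, a paralog of RPL7 that acts in ribosome assembly, rose from 101 and 101 to 125 and 118 (0.265, adjusted p = 0.0353). FAU, which encodes RPS30 fused to a ubiquitin-like protein, was at 1254 and 1245 in LACZ and 1332 to 1389 in all guide libraries, but its changes of 0.13 and 0.12 did not pass (adjusted p = 0.0791 and 0.0801). Its transcript, like those of most members, starts with a TOP tract.

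Of 14 other RNAs known for TOP starts, 6 fell and 0 rose with sgRNA1 and 5 fell and 0 rose with sgRNA3. Many of these falls were snoRNA host RNAs, since GAS5, SNHG1 and SNHG5 fell with each guide. The rest were TPT1, PABPC1 and EIF4A2 with sgRNA1, and BTF3 and EIF4A2 with sgRNA3. SNHG5 changed by -0.88 and -0.64 (limma adjusted p = 0.0210 and 0.0375). SNHG5, TPT1 and BTF3 are named here after their values were seen. The falls were 42.9% and 35.7% of the list, where 4.31% and 5.25% of all genes tested fell. Among the other genes with a mean of at least 300 TPM, 11.9% and 13.5% fell. These differences were not tested. The list had median log2 changes of -0.15 and -0.12, beside 0.015 and -0.03 for the members. No member of that list had a positive change at an unadjusted p below 0.05. GAS5, a snoRNA host RNA whose single listed start in the RefSeq table lacks the tract, was at 667 and 663 TPM in LACZ, 419 and 438 with sgRNA1, and 452 and 485 with sgRNA3 (-0.63 and -0.50, adjusted p = 0.00391 and 0.00755). SNHG1, another host, was at 509 and 485, then 269 and 258, then 306 and 311 (-0.91 and -0.68, adjusted p = 0.00117 and 0.00284). EIF4A2, a translation initiation helicase, changed by -0.42 and -0.37 (adjusted p = 0.00564 and 0.00784), and PABPC1, the poly(A)-binding protein, fell with sgRNA1 but did not pass with sgRNA3 (-0.23 and -0.10, adjusted p = 0.0204 and 0.107). The 28 members that host snoRNAs had medians of -0.01.

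Among 12 elongation and release factors, 1 rose and 2 fell with sgRNA1 and 2 rose and 2 fell with sgRNA3. ABCE1, which splits ribosomes after termination, rose from 48.7 and 51.8 TPM to 87.1 and 90.0 with sgRNA1 and 122 and 117 with sgRNA3 (0.81 and 1.24, adjusted p = 0.00362 and 0.00128). EEF2, which moves the ribosome along the mRNA, fell from 638 and 619 to 536 and 500.4 and to 549 and 531 (-0.28 and -0.22, adjusted p = 0.0334 and 0.0470). EEF1A2, which delivers aminoacyl-tRNA, fell by 0.32 and 0.44 on the log2 scale (adjusted p = 0.0217 and 0.00903), and GSPT1, a release factor, rose with sgRNA3 by 0.20 (adjusted p = 0.0484). Among 14 subunits of the initiation factor eIF3, 1 rose with sgRNA1 (EIF3B, 0.28, adjusted p = 0.0441) and 3 with sgRNA3 (EIF3B 0.38, EIF3G 0.30 and EIF3J 0.28, adjusted p = 0.0185, 0.0252 and 0.0451), and 0 fell.

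Of 11 chaperones and import factors of ribosomal proteins, 0 passed with sgRNA1, with 1 at an unadjusted p below 0.05, and 1 rose with sgRNA3 (BCCIP, 0.31, adjusted p = 0.0246). Of 13 regulators of ribosomal protein transcription or of TOP mRNA translation, 1 rose and 2 fell with sgRNA1 and 2 rose and 2 fell with sgRNA3. MYC, a transcription factor that acts on ribosome genes, was at 281 and 283 TPM in LACZ, 107 and 109 with sgRNA1, and 138 and 129 with sgRNA3 (-1.375 and -1.08, adjusted p = 0.000587 and 0.00128). EIF4EBP1, a repressor of cap-dependent initiation that mTORC1 inactivates, fell by 0.48 with sgRNA1 and by 0.365 with sgRNA3 (adjusted p = 0.0215 and 0.0347), while its paralog EIF4EBP2 rose from 25.5 and 23.9 to 42.0 and 38.4 and to 39.2 and 41.9 (0.68 and 0.69, adjusted p = 0.0162 and 0.0130). RPTOR, a subunit of mTORC1, rose with sgRNA3 by 0.49 (adjusted p = 0.0306). In the same libraries the members' summed share of all TPM stayed between 12.6% and 13.1%. A share does not measure RNA per cell, and a link between these regulators and the members was not tested. Under median-of-ratios scaling the mean subunit sums were 7.25% (large) and 3.85% (small) above LACZ with sgRNA1, and 2.82% and 0.0118% with sgRNA3. The next count covers list genes named by smallest p, and leaves out SNHG5, TPT1 and BTF3. Of the 30 calls of genes named from these lists, 7 held in every fit with a library left out (both calls of ABCE1, SNHG1 and MYC, and GAS5 with sgRNA1), and 23 were lost in at least 1, such as those of GAS5 and EIF4A2 with sgRNA3 without LACZ 1 (adjusted p = 0.0550 and 0.0558).

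**Figure D5:**
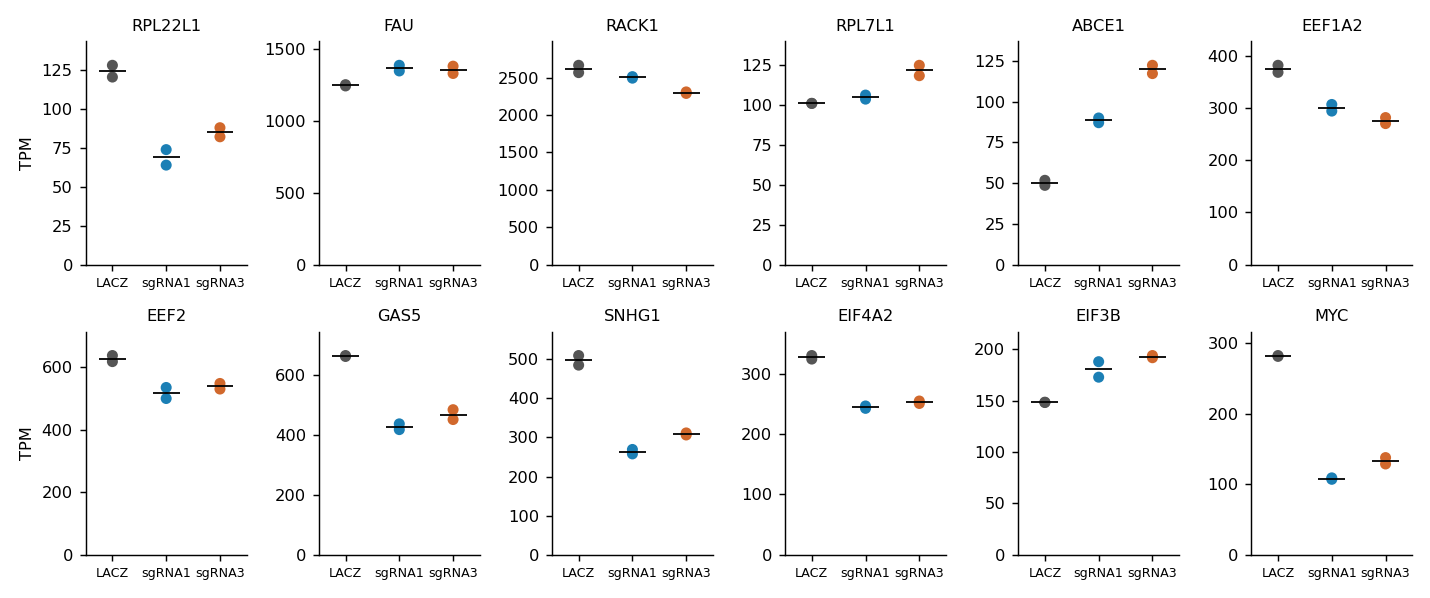
TPM per library (points) and group mean (lines) of 12 genes of the translation machinery and its regulators, on axes from 0. RPL22L1, GAS5, SNHG1, EIF4A2 and MYC are lower in all 4 guide libraries and ABCE1 higher, MYC from 281 and 283 in LACZ to between 107 and 138.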

How the data were processed

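RNA-seq was made from total RNA of CFPAC-1 cells, and the build GRCh38 and the tools RSEM 1.3.1, HISAT2 2.1.0 and DESeq2 1.24.0 are named in the submitters' processing notes. The authors deposited TPM values per gene, and 3 further columns, which are group means, were not used. The guide number tied the H1 and H3 columns to samples titled S1 and S3. Positions and snoRNAs came from GENCODE 29 and transcript starts from RefSeq.

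Values were analysed as log2(TPM + 1), with 16610 genes at 1 TPM or more in at least 2 libraries. All 6 libraries entered a single fit in limma 3.58.1 (R 4.3.3, with data.table version 1.17.8), whose prior variance followed mean intensity and added 2.34 degrees of freedom to the 3 of the residuals. Every adjusted p is two-sided, adjusted by Benjamini-Hochberg over the 16610 genes in the main fit, and the threshold was 0.05. In an alternative fit the adjustment was over the genes tested in that fit. A log2 change on this scale understates the change of low genes. The fit was run on simulated data, but its behaviour for changes as small as those of the members was not tested.

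Members and gene lists were chosen with earlier results of these data known. Named members were, per comparison and subunit, up to 4 called in each direction by size (3 between guides), the 3 highest and 3 lowest in LACZ, and a list known for roles of their own; from each list up to 4 genes with the smallest p were named. Alternatives were the pseudocount, the filter, scaling, quantile normalization, removal of mitochondrial transcripts or members, no variance trend, array weights, only the groups compared, a replicate block, added pseudogenes and leaving out each library.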

Additional observations from a re-analysis of the deposited data

Results flagged for a closer look

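COL1A1, a collagen gene from the list of fibroblast markers, differed between the guides. It was at 74.8 and 74.0 TPM in LACZ, 57.4 and 55.5 with sgRNA1, and 39.0 and 35.1 with sgRNA3, a log2 difference of -0.60 between sgRNA3 and sgRNA1 (limma adjusted p = 0.0463). No ribosomal protein gene differed between the guides by this test.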

How the results depend on the processing

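The limits come from 2 libraries a group, small changes and an unknown depth. Members called higher and lower were 3 and 2 with sgRNA1 and 4 and 8 with sgRNA3, and 3 and 1 with both guides. A pseudocount of 5 or removal of mitochondrial transcripts gave 1 lower with sgRNA1. Without the filter on low values 0 and 0, then 1 and 0, and with both guides 0 and 0 were called, and with a filter of 5 TPM 4 lower with sgRNA1, 9 higher with sgRNA3 and 2 lower with both. Median-of-ratios scaling gave 0 lower with sgRNA1, 1 with sgRNA3 and 0 with both, and quantile normalization 7, 15 and 6. Without a variance trend no count was above 0, and array weights gave 1 lower with sgRNA1 and 7 higher with sgRNA3. A fit of only the groups compared called 0 and 0, 2 and 2, and 0 and 0 with both. Added pseudogenes left 0 lower with sgRNA1 and with both. Leaving out a library gave 0 to 2 higher and 0 lower with sgRNA1, 0 to 3 higher and 0 to 3 lower with sgRNA3, and 0 with both. A group left with 1 library was assumed to vary like the others. The cause of these shifts was not tested. Between the guides 0 members were called under every alternative run.

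Large minus small subunit medians were 0.042, 0.010 and, between guides, -0.038. They were -0.009 (sgRNA3) and -0.021 (between guides) under quantile normalization and 0.056 and 0.020 (sgRNA1, sgRNA3) with pseudogenes added. With a library left out they ran from 0.025 to 0.042, from -0.002 to 0.025 and from -0.038 to -0.006. The ratio of large to small subunit in LACZ, sgRNA1 and sgRNA3 was 1.409, 1.438 and 1.443 without RPS27, 1.400, 1.421 and 1.420 without the 6 most abundant members, and 1.295, 1.351 and 1.343 with pseudogenes added. These 3 settings, the added pseudogenes among them, were chosen after seeing the data.

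The main fit did not pair libraries by replicate number. Deviations of same-numbered libraries were compared for LACZ with sgRNA1, LACZ with sgRNA3 and sgRNA1 with sgRNA3. They correlated at -0.018, 0.006 and -0.031 across all genes and at -0.441, -0.051 and -0.177 across the members. With 2 libraries a group, and genes that are not independent replicates, these values cannot decide whether same-numbered libraries were handled together. A fit with a replicate block called 1 higher and 0 lower with sgRNA1, 1 and 2 with sgRNA3, and 1 and 0 with both guides.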
